A study of Mus musculus with 6 samples.

Results

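The homeobox genes that mark position along the neural axis were read in primary mouse cultures labelled as GABAergic interneurons, the GABA-releasing inhibitory cells of the brain. Members were chosen by symbol alone: 39 Hox genes and 32 genes of the Irx, Otx, Emx, En, Gbx, Gsx, Pax, Tlx and sine oculis homeobox families, together 71 of the 55335 genes in the table. The cells came from brains of wild-type C57BL/6 embryos at embryonic day 14.5. In 3 libraries they carried an adeno-associated virus (AAV) with a scrambled hairpin, here the scramble group, and in 3 an AAV with a hairpin named shbrpf1. All 6 cultures had the virus for 12 hours, and no uninfected culture is analysed here. The study asks what Brpf1, a scaffold of the Kat6a and Kat6b histone acetyltransferase complexes, does in interneurons of the medial ganglionic eminence, a ventral forebrain zone. One label gives the source as neural progenitor cells, and the labels are silent on whether a group's libraries are from separate embryos or cultures. P-values therefore measure the spread between these libraries, which may be technical.

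Homeodomain transcription factors divide the early neural tube into territories. Six3 and the Otx, Emx and Gsx genes belong to the forebrain, the En and Gbx genes and Pax2, Pax5 and Pax8 to the boundary of midbrain and hindbrain, and the Irx genes to territories behind the anterior forebrain. The clustered Hox genes give hindbrain and spinal cord their order from front to back, and Polycomb proteins keep them silent in the forebrain.

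The values are FPKM, that is, fragments scaled by transcript length and by sequencing depth. Depth, estimated from the steps between low values, was 14.3 to 21.1 M fragments in the scramble libraries and 13.1 to 19.3 M in the shbrpf1 libraries. Libraries sharing a replicate number resembled each other whichever virus they carried, and 69.4% of the 12792 genes tested passed an F test between the numbers (limma, adjusted p under 0.05). Brpf1, the target, was read first. Brpf1 gave 3.29, 5.45 and 4.84 FPKM in scramble libraries 1 to 3 and 3.13, 4.58 and 3.78 FPKM in shbrpf1 libraries 1 to 3. The groups overlapped, the ratio of their means was 0.846, and an exact two-sided permutation test gave p = 0.4, where 0.1 is the smallest that 3 against 3 allow. Within same-numbered libraries Brpf1 was lower with shbrpf1 in 3 of 3 pairs. Its difference on the log2(FPKM + 1) scale was -0.18 ± 0.26 (SE; limma, unadjusted p = 0.496), and the SE was 0.10 with the replicate number as a block (95% interval -0.44 to 0.072, limma unadjusted p = 0.127). The lower level of the target thus did not pass a test with or without the pairing.

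The promoter stretches of 4 members are shown because they stand for the states found: Six3 and Gsx1 were on and varied between replicate numbers, Gsx2 is the low paralogue of Gsx1, and Hoxb4 was listed at 0 in every library. Each is the 250 bases upstream of the RefSeq start (GRCm38.p6), with TAAT or its reverse complement ATTA, the core bound by many homeodomain proteins, in capitals.
Six3: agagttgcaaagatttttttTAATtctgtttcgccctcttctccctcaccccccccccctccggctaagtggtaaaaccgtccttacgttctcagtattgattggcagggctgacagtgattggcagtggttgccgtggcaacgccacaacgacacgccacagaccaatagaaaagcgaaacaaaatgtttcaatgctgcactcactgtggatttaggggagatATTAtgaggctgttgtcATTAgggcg
Gsx1: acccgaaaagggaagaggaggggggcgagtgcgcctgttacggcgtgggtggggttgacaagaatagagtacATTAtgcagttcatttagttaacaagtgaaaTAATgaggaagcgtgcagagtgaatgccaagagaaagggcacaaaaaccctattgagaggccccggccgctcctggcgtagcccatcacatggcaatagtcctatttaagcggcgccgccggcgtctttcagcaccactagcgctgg
Gsx2: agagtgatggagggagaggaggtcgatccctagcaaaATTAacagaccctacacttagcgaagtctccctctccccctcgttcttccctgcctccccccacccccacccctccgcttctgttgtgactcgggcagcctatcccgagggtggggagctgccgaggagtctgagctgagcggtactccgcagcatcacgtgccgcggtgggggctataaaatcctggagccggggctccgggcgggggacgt
Hoxb4: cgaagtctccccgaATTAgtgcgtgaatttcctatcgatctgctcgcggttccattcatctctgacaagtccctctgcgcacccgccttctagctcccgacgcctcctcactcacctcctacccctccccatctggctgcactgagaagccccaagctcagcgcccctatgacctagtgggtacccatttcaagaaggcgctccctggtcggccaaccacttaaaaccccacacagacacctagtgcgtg
The stretches lie at chr17:85620584-85620833 for Six3, chr5:147188446-147188695 for Gsx1, chr5:75075351-75075600 for Gsx2 and chr11:96318017-96318266 for Hoxb4, all on the plus strand. The Six3 stretch lies inside the annotated Six3 gene (85613608 to 85629302), because the RefSeq start is downstream of the gene start used for the FPKM. The other stretches end directly before the annotated gene start. The Six3 stretch overlaps an exon of the antisense gene Gm28528, and the others overlap no exon of GENCODE M21. TAAT on either strand occurs 3 times for Six3, 2 times for Gsx1 and 1 time each for Gsx2 and Hoxb4, and 54.9% of the 32851 RefSeq stretches of this length hold it. CpG dinucleotides number 10 for Six3, 15 for Gsx1, 16 for Gsx2 and 14 for Hoxb4, against a median of 6 over all stretches. RefSeq promoters matched 45 of the 71 members (63.4%), too few to compare sets of members.

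Of the 71 members 3 were on, which here means that the mean of a group reached 1 FPKM. These were Six3, Gsx1 and Emx2, and each was above 1 FPKM in all 6 libraries. Another 15 were low, under that level but above 0.1 FPKM in at least 1 library. The other 53 were silent, at or under 0.1 FPKM in every library, and 34 of them were listed at 0 throughout. The 8 forebrain members (Otx1, Otx2, Emx1, Emx2, Six3, Six6, Gsx1 and Gsx2) held 77.3% to 95.3% of the FPKM summed over all members in a library, and the 39 Hox genes 0.0583% to 0.569%.

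**Figure D1:**
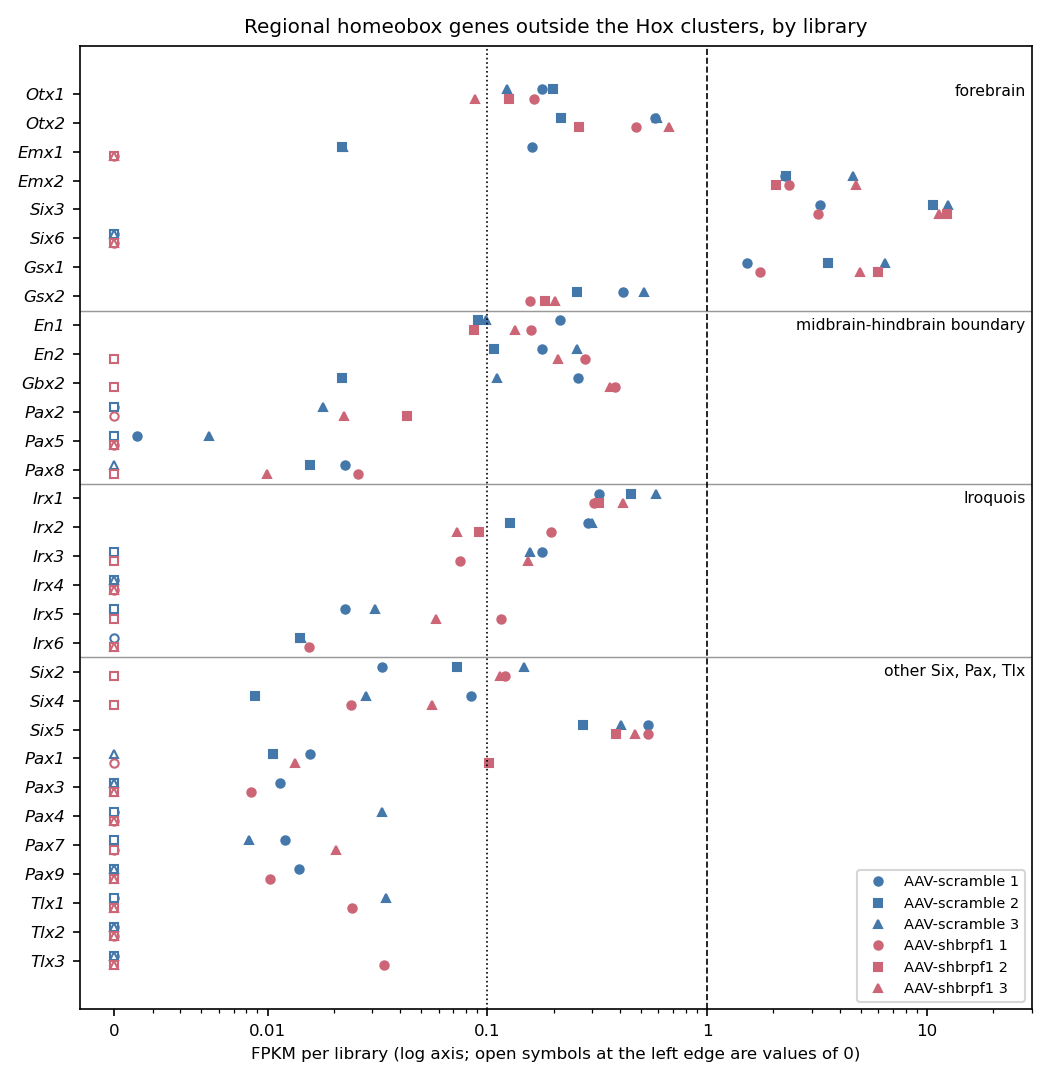
FPKM of 31 members outside the Hox clusters on a log axis, with 1 point per library marked by virus and replicate number and values of 0 as open symbols at the left edge. Six3, Gsx1 and Emx2 lie above 1 FPKM in all 6 libraries, and the other members shown stay below it.

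Six3, which is needed for the anterior forebrain and the eye, was the highest member (chromosome 17, 85613608 to 85629302, plus strand, GRCm38). Six3 gave 3.26, 10.6 and 12.5 FPKM in scramble libraries 1 to 3 and 3.19, 12.3 and 11.3 FPKM in shbrpf1 libraries 1 to 3, from an estimated 171 to 956 fragments. Both libraries numbered 1 were low and the other 4 high, and the viruses overlapped. Six6, its paralogue of eye and hypothalamus, was listed at 0 in all 6 libraries.

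Gsx1 acts in progenitors of the ganglionic eminences (chromosome 5, 147188696 to 147190947, plus strand). Gsx1 gave 1.52, 3.53 and 6.46 FPKM in scramble libraries 1 to 3 and 1.74, 5.95 and 4.97 FPKM in shbrpf1 libraries 1 to 3, from an estimated 38.3 to 238 fragments. As for Six3, the libraries numbered 1 were the lowest. Emx2, best known from the cortical primordium, had another pattern (chromosome 19, 59458372 to 59465357, plus strand). Emx2 gave 2.26, 2.29 and 4.61 FPKM in scramble libraries 1 to 3 and 2.35, 2.05 and 4.76 FPKM in shbrpf1 libraries 1 to 3, from an estimated 78.2 to 279 fragments. Here both libraries numbered 3 were high and the other 4 lay close together.

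Each of the 3 members that were on passed the F test between replicate numbers, as did 69.4% of all genes tested. For Six3, number 2 exceeded number 1 by 1.56 ± 0.12 (SE) on the log2(FPKM + 1) scale and number 3 exceeded number 1 by 1.61 (limma F test, adjusted p = 0.00227). In FPKM, number 2 was 3.26 times number 1 in the scramble group and 3.87 times in the shbrpf1 group. Six3 in numbers 2 and 3 differed by 0.049 on the log2 scale (limma, adjusted p = 0.763). Gsx1 behaved alike, with number 2 at 2.33 and 3.42 times number 1 in the scramble and shbrpf1 groups (limma F test, adjusted p = 0.00811). Emx2 in number 3 exceeded number 1 by 0.78 ± 0.13 and number 2 by 0.84 (limma F test, adjusted p = 0.00497). Without the libraries numbered 1, only Emx2 of the 3 passed, and without those numbered 3, only Six3 and Gsx1.

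**Figure D2:**
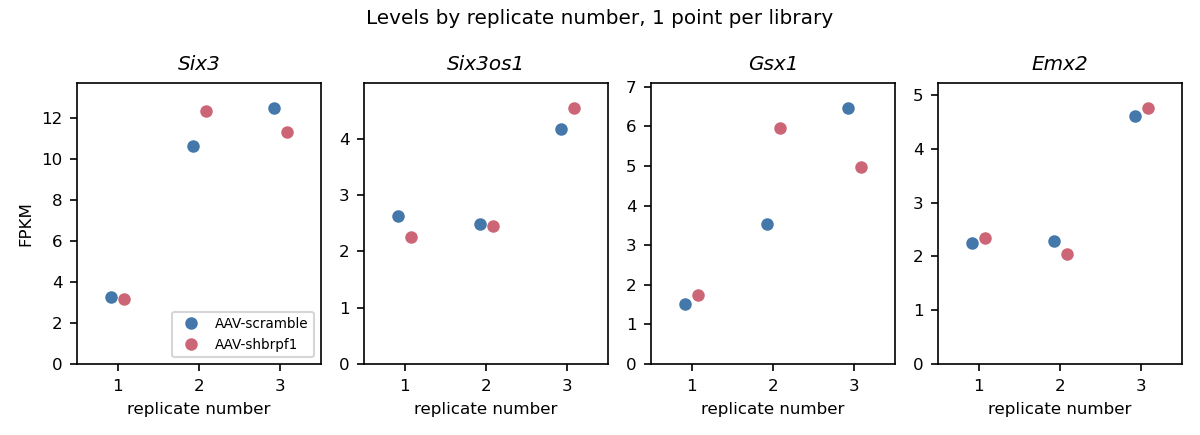
FPKM of Six3, its antisense RNA Six3os1, Gsx1 and Emx2 by replicate number, with 1 point per library coloured by virus. Six3 and Gsx1 are lowest in the libraries numbered 1, and Six3os1 and Emx2 are highest in those numbered 3.

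Among 18 RNA genes beside the members, antisense RNAs and microRNAs of the Hox clusters included, 13 were listed at 0, with Hotair, Hottip, Mir10a and Mir10b among them. Every microRNA gene of the list was among the 13. Whether these libraries could capture RNAs that short was not tested, so their zeros may not mean silence. Six3os1 alone was on; it overlaps Six3 on the opposite strand. Six3os1 gave 2.62, 2.49 and 4.16 FPKM in scramble libraries 1 to 3 and 2.26, 2.45 and 4.54 FPKM in shbrpf1 libraries 1 to 3. Numbers 1 and 2, which set Six3 apart, lay close together for Six3os1, and this contrast between the genes was not tested. Emx2os, which overlaps the start of Emx2 on the minus strand, ranged over 0.404 to 0.871 FPKM. Whether strand was used in counting is unknown here, so reads of an antisense pair may be mixed.

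Some markers of other cells also set the libraries numbered 1 apart. The 15 genes of meninges, mesenchyme and muscle, 7 of them on, summed to 69.8 FPKM in scramble library 1 and 50.2 in shbrpf1 library 1, against 11.8 to 21.6 in the other 4. Their sum spanned 12 to 69.8 FPKM in the scramble group and 11.8 to 50.2 in the shbrpf1 group. Pdgfra, also a gene of oligodendrocyte precursors, and Tagln, of smooth muscle, led the list. Pdgfra was highest in number 3, at 15.9 to 18.6 FPKM. It gave 11.9 to 12.5 FPKM in number 1 and 9.96 to 10.1 in number 2. Tagln stood at 12.5 FPKM in shbrpf1 library 1 and at 0.409 in scramble library 2, and the muscle gene Myf5 was listed at 0. Of 10 neural crest and placode genes only Sox10, also an oligodendrocyte lineage gene, was on. It was lowest where Six3 was lowest, with 5.02 FPKM in scramble library 1 and 5.64 in shbrpf1 library 1, against 13.2 FPKM or more in the others. The part of other cells in the levels of Six3 and Gsx1 was not tested, and in bulk RNA fewer cells of a type and less RNA per cell cannot be told apart.

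Gsx2, which specifies progenitors of the lateral ganglionic eminence, was low (chromosome 5, 75075601 to 75077893, plus strand). Gsx2 gave 0.412, 0.256 and 0.518 FPKM in scramble libraries 1 to 3 and 0.155, 0.183 and 0.203 FPKM in shbrpf1 libraries 1 to 3. Every shbrpf1 library lay below every scramble library, and the ratio of the means was 0.456. The estimated fragments were few, 9.78, 9 and 17.9 against 4.98, 3.99 and 5.59. Below the level for the main test, Gsx2 was fitted only without the filter on low values, where it differed by -0.24 ± 0.0963 on the log2(FPKM + 1) scale (limma, unadjusted p = 0.0475, adjusted p = 1). Blocking on the replicate number gave an unadjusted p of 0.0371 and an adjusted p of 0.99 by limma. The Gsx2 difference thus failed the correction over the 31057 genes of that fit.

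Emx1, a gene of cortical progenitors and their glutamatergic progeny, was the other low member without overlap. Emx1 gave 0.16, 0.0217 and 0.022 FPKM in scramble libraries 1 to 3 and 0, 0 and 0 FPKM in shbrpf1 libraries 1 to 3, the scramble values being worth an estimated 3.56, 0.715 and 0.715 fragments. Gsx2 and Emx1 were 2 of the 15 low members, where 1.36% of all 11217 low genes lay without overlap in this direction and 1.55% in the other. No low member lay without overlap in the higher direction. Both genes were singled out after their values were seen.

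**Figure D3:**
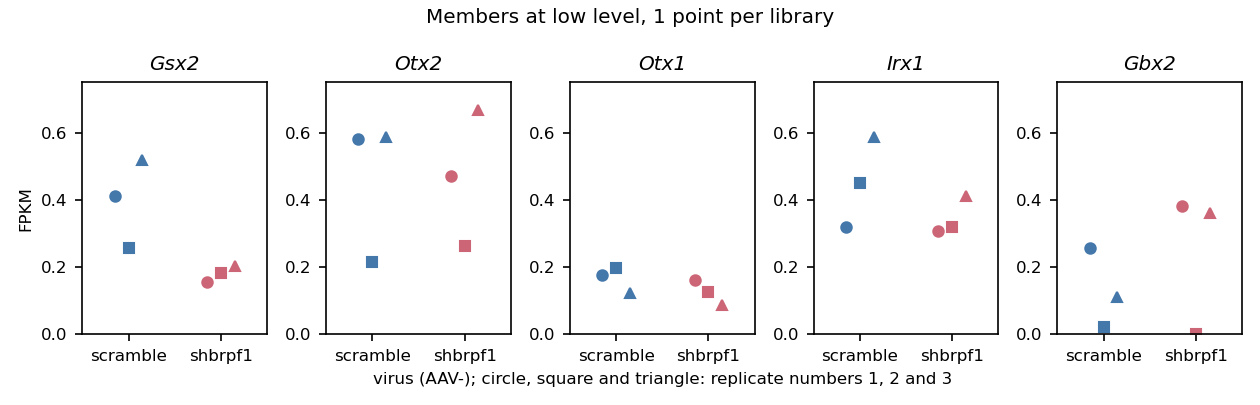
FPKM of Gsx2, Otx2, Otx1, Irx1 and Gbx2 by virus, with 1 point per library marked by replicate number. The shbrpf1 libraries lie below the scramble libraries for Gsx2, and the groups overlap for the other 4 genes.

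The Otx genes, early selectors of forebrain and midbrain, were low. Otx2 gave 0.58, 0.216 and 0.588 FPKM in scramble libraries 1 to 3 and 0.472, 0.261 and 0.667 FPKM in shbrpf1 libraries 1 to 3, lowest in the libraries numbered 2. Otx1 ranged over 0.0876 to 0.198 FPKM. Otx2 also marks the choroid plexus, the secretory epithelium of the ventricles, of whose 7 listed genes only Ttr was on. Ttr gave 0.0588, 0 and 3.48 FPKM in scramble libraries 1 to 3 and 0, 0 and 9.53 FPKM in shbrpf1 libraries 1 to 3. Ttr was high only in the libraries numbered 3. Otx2 was highest there too, at 0.588 and 0.667 FPKM, with 0.58 and 0.472 in the libraries numbered 1. Aqp1, the next in that list, ranged over 0.138 to 0.529 FPKM. The list summed to 0.545 to 4.26 FPKM in the scramble group and 0.468 to 10.4 in the shbrpf1 group, Otx2os1 was at 0, and the part of such cells in Otx2 was not tested.

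Of the 6 genes of the boundary of midbrain and hindbrain 0 were on, 3 low and 3 silent. The engrailed genes, which pattern midbrain and cerebellum, ranged over 0.0867 to 0.213 FPKM for En1 and 0 to 0.278 FPKM for En2. Gbx2, of the anterior hindbrain and the thalamus, gave 0.258, 0.0218 and 0.11 FPKM in scramble libraries 1 to 3 and 0.381, 0 and 0.359 FPKM in shbrpf1 libraries 1 to 3. It was lowest in both libraries numbered 2, the viruses overlapped, and the gene overlaps D130058E05Rik on the opposite strand. Pax2, Pax5 and Pax8, which help set up the boundary, were silent with highest values of 0.0432, 0.00542 and 0.0257 FPKM. The 6 genes summed to 0.13 to 0.843 FPKM per library, against 8.06 to 24.8 for the 8 forebrain genes.

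Of the 6 Iroquois genes 0 were on, 4 low and 2 silent. Irx1 gave 0.321, 0.451 and 0.587 FPKM in scramble libraries 1 to 3 and 0.307, 0.32 and 0.412 FPKM in shbrpf1 libraries 1 to 3, with overlapping groups. Its neighbour Irx2 on chromosome 13 ranged over 0.0726 to 0.3 FPKM, and Irx4 of the same chromosome was listed at 0. On chromosome 8, Irx3 ranged over 0 to 0.177 FPKM, Irx5 over 0 to 0.116 and the silent Irx6 up to 0.0154. Irx3 and Irx5 were both listed at 0 in both libraries numbered 2.

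Low values in the libraries numbered 2 recurred among the low members. En1, En2, Gbx2, Irx3, Irx5, Otx2 and Six5, 7 of the 15, were lower in both libraries of number 2 than in the other 4, as were 25.5% of all low genes. None of the 15 was higher there (2.67% of low genes). For number 1, En1 and Six5 were higher than in the other 4 (26.1% of low genes) and 0 were lower (2.73%). For number 3, Otx2 was higher (9.33%) and Otx1 lower (3.39%). These counts were looked up after the values were seen. The libraries numbered 2 had the highest and the lowest estimated depth and the fewest genes above 0, 22621 and 18780.

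The remaining genes mark mostly tissues outside the brain, or its dorsal and posterior parts. Six5, which is broadly expressed, ranged over 0.271 to 0.54 FPKM, and Six2, of kidney and head mesenchyme, over 0 to 0.146. Six4 stayed just inside the silent range with 0.084 FPKM at most, and Pax1, of the sclerotome, just outside it with 0.102 FPKM in shbrpf1 library 2. Among the other silent genes Tlx1 was highest in its family at 0.0346 FPKM, Tlx3 reached 0.0339 and Tlx2 was listed at 0. The dorsal neural tube genes Pax3 and Pax7 reached 0.0113 and 0.0205 FPKM, Pax4, of the pancreas, 0.0333, and Pax9, a partner of Pax1, 0.0139.

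All 39 Hox genes were silent in all 6 libraries, and 31 were listed at 0 throughout. The 10 Hoxb genes were all among these. Above 0 in at least 1 library were 5 of 11 Hoxa genes, 1 of 9 Hoxc genes and 2 of 9 Hoxd genes, with 12 values above 0 in all. By position they were 2 of 12 genes in paralogue groups 1 to 4, which pattern the hindbrain, 4 of 11 in groups 5 to 8 and 2 of 16 in groups 9 to 13. The few values were thus spread along the clusters.

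**Figure D4:**
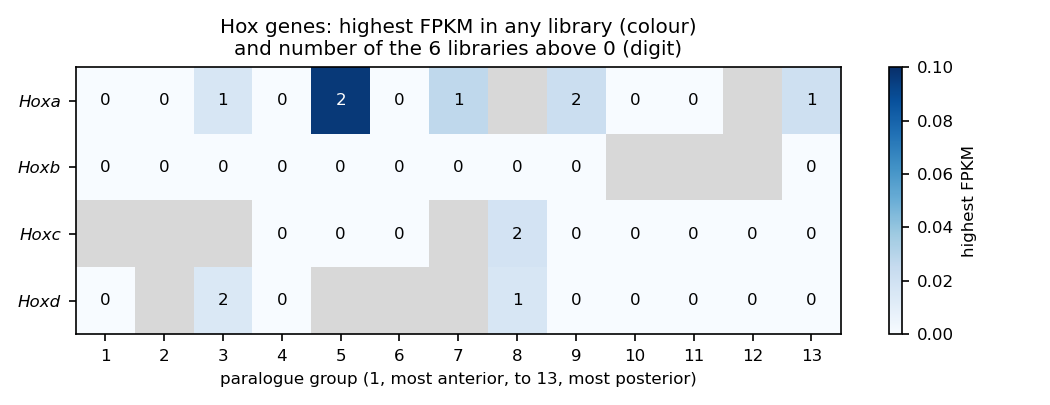
The 39 Hox genes by cluster and paralogue group, with the highest FPKM in any library as colour and the number of libraries above 0 as a digit. The highest value is 0.0964 FPKM, for Hoxa5.

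The Hox values above 0 were worth at most about 1 fragment each, with 1 exception. On a Hox transcript of median length 1 fragment was worth 0.0207 to 0.0334 FPKM, depending on the library, and 3 fragments 0.0622 to 0.1 FPKM. The exception was Hoxa5, at 0.0964 FPKM in shbrpf1 library 3, an estimated 3 fragments. Hoxa5 was at 0.0314 FPKM in scramble library 1 and at 0 in the other 4, and its gene overlaps those of Hoxa3 and Hoxaas3. In the other clusters the highest were Hoxc8 at 0.0183 FPKM and Hoxd8 at 0.016. Summed over the 39 genes, a library held an estimated 0.541 to 4.62 Hox fragments. At this depth a Hox level worth under about 3 fragments could be listed at 0, and such floors cover counting error only.

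Between the viruses, 0 of the 3 members tested passed at an adjusted p under 0.05 by limma, with the replicate number as a block or without it, and 0 had an unadjusted p under 0.05. Over all 12792 genes 0 (0%) passed either way, while 0.180% had an unadjusted p under 0.05 without the block and 2.19% with it. Six3 averaged 8.94 ± 5.01 FPKM in the shbrpf1 group and 8.79 ± 4.88 FPKM in the scramble group (SD, n = 3). Its log2 difference was 0.013 ± 0.59 (SE; 95% interval -1.37 to 1.39, or -0.24 to 0.27 with the block). Gsx1 averaged 4.22 ± 2.2 FPKM in the shbrpf1 group and 3.84 ± 2.49 FPKM in the scramble group, a log2 difference of 0.14 ± 0.50 (SE; 95% interval -1.03 to 1.30, or -0.33 to 0.61 with the block). Emx2 averaged 3.05 ± 1.49 FPKM in the shbrpf1 group and 3.05 ± 1.35 FPKM in the scramble group, a log2 difference of -0.011 ± 0.35 (SE; 95% interval -0.83 to 0.81, or -0.27 to 0.25 with the block). All 3 intervals include 0, and the block narrows them. None of the 3 had groups without overlap, which 0.492% of tested genes showed in the lower and 0.578% in the higher direction.

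**Figure D5:**
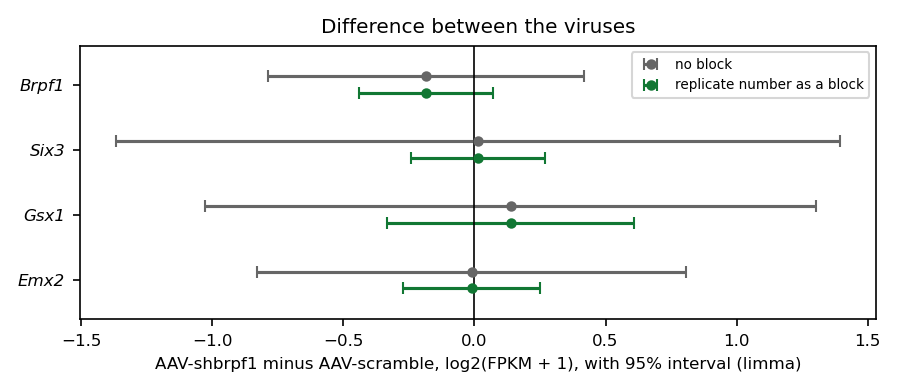
Difference between shbrpf1 and scramble on the log2(FPKM + 1) scale for Brpf1, Six3, Gsx1 and Emx2, with 95% intervals from limma with and without the replicate number as a block. Every interval includes 0.

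Partners and regulators of the members were expressed in the same cultures. All 9 TALE homeodomain genes, whose proteins bind DNA together with Hox proteins, were on, among them Meis2 at 8.12 to 16.4 FPKM. All 23 Polycomb genes were on, led by Rbbp7 at 23.5 to 35.7 FPKM and Cbx6 at 12.4 to 25.9. All 14 genes of Trithorax and Kat6 complexes were on, led by Meaf6, a Kat6 complex subunit, at 17.1 to 27.5 FPKM and Kmt2a, a methyltransferase that maintains Hox expression, at 13.8 to 22.6. In each of these lists 0 genes rose and 0 fell with shbrpf1 by limma. Their median log2 differences were -0.035, -0.049 and -0.004, against -0.023 over all genes tested. Between replicate numbers 7 of 9, 15 of 23 and 12 of 14 passed.

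Other regional markers were read beside the members. Of 17 telencephalic and ganglionic eminence factors 14 were on, led by Lhx6 at 28 to 52.5 FPKM and Dlx1 at 17.3 to 40.3, both of ventral forebrain interneurons. Of 10 cortical and glutamatergic factors 2 were on, Bcl11b at 19.2 to 43.8 FPKM and Lhx2 at 4.31 to 8.52, while Neurod6, of cortical glutamatergic neurons, reached 0.0467 FPKM. Of 12 diencephalic and eye factors 2 were on, Tcf7l2 at 0.62 to 2.28 FPKM and Zic1 at 0.201 to 2.12. Of 10 midbrain factors 1 was on, Nr4a2 at 0.847 to 2.1 FPKM, with Th at 0 to 0.269 and Foxa2 listed at 0. Of the hindbrain and spinal cord factors, Egr2 ranged over 0.0141 to 0.403 FPKM, and Lbx1, Mnx1 and Olig3 were listed at 0.

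Progenitor genes were on in 10 of 10 cases, led by Fabp7 at 169 to 758 FPKM and Slc1a3 at 43.2 to 97.4, and microglial and endothelial lists had 0 of 5 genes on each. P2ry12 and Aif1, of microglia, reached 0.277 and 0.102 FPKM, and Kdr and Pecam1, of endothelium, 0.452 and 0.148. Of 21 patterning signals and their readouts 10 were on, led by Wnt7b at 5.92 to 23.5 FPKM and Ptch1, a receptor and target of Sonic hedgehog, at 3.42 to 6. Shh itself gave 3.17, 0.598 and 1.17 FPKM in scramble libraries 1 to 3 and 3.45, 0.695 and 1.24 FPKM in shbrpf1 libraries 1 to 3. It was highest in the libraries numbered 1, where Six3 and Gsx1 were lowest. Fgf8, a signal of the boundary of midbrain and hindbrain, was above 0 in 1 library, at 0.132 FPKM. In these lists too, 0 genes passed between the viruses by limma.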

How the data were processed

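RNA of 6 libraries, 3 per virus, was read in paired-end mode on the Illumina HiSeq platform, per the labels' protocols. Columns were matched to libraries by the group and number in the titles. The authors deposited 1 table of gene values with no unit in its header, taken here as FPKM because the values are not whole and low values fall on steps. The submitters' processing notes name FastQC, StringTie and DESeq2, without roles, and mm9. For aligner, annotation and strand use nothing is given in the sources used here. Coordinates of all 71 members, and of 54899 of 55154 identifiers found in GENCODE M21, equal those of GRCm38, which is therefore the build used.

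Depth came from 11673 genes with 1 exon and transcript of over 400 nt, taking the commonest product of FPKM and length as 1 fragment. Only 40.1% to 44.1% of low values lay on whole steps (tolerance 0.03), so no count test was run, and fragments per member, at the longest transcript, are estimates. Genes whose mean reached 1 FPKM in a group were tested as log2(FPKM + 1) with limma 3.58.1 (trend, two-sided) in R 4.3.3 over the whole table, with Benjamini-Hochberg adjustment. Changes of low genes are understated on this scale. Same-numbered libraries deviated together from the group means (correlations of 0.866, 0.829 and 0.574 for numbers 1 to 3, at most 0.00199 otherwise). Deviations cancel out within a group, so high same-number correlations by themselves push the others down. The same-number values show that the numbers pair the libraries, though the labels leave their meaning unstated. Alternatives were a pseudocount of 0.1, no filter, median-ratio scaling, no trend, the replicate block, other levels for on, and each library or pair left out.

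Members and lists were chosen with earlier results of these data known. The text names Brpf1, members on or low, the highest silent member of a family or cluster, and the 2 most abundant genes of a list. Other genes were named after their values were seen, and some genes are not reported here.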

Additional observations from a re-analysis of the deposited data

How the results depend on the processing

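The count of 3 members on was the same with a level of 0.5 or 2 FPKM, with 1 FPKM required in every library, with median-ratio scaling and without any single library. The count of 0 members past the threshold between the viruses held in all 14 alternatives. Over all genes it was 0 as well, except with the replicate block, where it was 8 without the pair numbered 2 and 1 without the pair numbered 3; the cause was not tested. The replicate block on all 6 libraries changed no call. The difference of Brpf1 kept its sign, from -0.36 to -0.06 on the log2 scale without single libraries, and was -0.18 with the replicate block.

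The differences of the members that were on had no stable sign: without single libraries Six3 ran from -0.51 to 0.55, Gsx1 from -0.26 to 0.55 and Emx2 from -0.29 to 0.25. With the replicate block and without the pair numbered 2 they were -0.0787, -0.10 and 0.0397. None passed the threshold in these fits.

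Between replicate numbers all 3 members passed with another pseudocount, filter or scaling, and 1 to 3 passed when the libraries of 1 number were left out. The count of all genes then ran from 3943 to 8466, with fewer libraries in the fit. Low members rest on few fragments, which limits what depth can show of them.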
